A study of Mus musculus with 12 samples.

Results

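The interferon-induced proteins with tetratricopeptide repeats are encoded in the mouse by a small gene family, of which Ifit1, Ifit2, Ifit3 and Ifit3b are described here. These 4 genes were taken by name, and all 4 were found by Ensembl ID among the 21959 genes of a table of TPM (transcripts per 1000000, a length-scaled share of a library). RNA came from C8-D1A, an established mouse line labelled as astrocytes, and 12 libraries fall into 4 groups of 3. The treated cells were kept under 15% CO2, or with 20 mM lactic acid, or in medium holding 0.2 g/L NaHCO3 (low NaHCO3), and the control cells were at 37 °C with 5% CO2. RNA was taken after 24 h, and no genetic change or further agent is given for any group. The pH reached is not given, so the treatments cannot be matched by acidity. The labels do not say that the 3 libraries of each group are separate cultures, so the p-values measure the spread between these libraries, which may be technical.

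Ifit proteins are cytoplasmic RNA-binding proteins whose genes are switched on by type I interferon and, more directly, by the sensing of foreign RNA. Interferon acts through its receptor, the kinases Jak1 and Tyk2, and a complex holding Stat2 and Irf9 that binds the interferon-stimulated response element (ISRE) in promoters. Ifit1 binds RNA whose 5′ cap lacks the methyl group that host enzymes add to the first nucleotide, and blocks its translation. In humans IFIT3 joins IFIT1 and strengthens its hold on RNA. Mouse Ifit2 is known for protection of neurons from neurotropic viruses, and Ifit3b is a near copy of Ifit3.

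The 6 family genes of the table lie in 1 cluster on chromosome 19, in the order Ifit2, Ifit3, Ifit1bl1, Ifit3b, Ifit1bl2 and Ifit1. The sequences upstream of RefSeq starts of the 4 described genes are shown with the letters searched for. Each run is the 250 bases before a RefSeq transcript start on the + strand of GRCm38.p6, with matches to the ISRE core (GAAA, any 2 bases, then GAAA, searched on both strands) in capitals. The expression table carries no coordinates and was made from another build, so these positions belong to RefSeq alone. Ifit1 is read at chr19:34640639-34640888, Ifit3 at chr19:34583279-34583528, Ifit3b at chr19:34607707-34607956 and the first Ifit2 window at chr19:34550444-34550693.
Ifit1: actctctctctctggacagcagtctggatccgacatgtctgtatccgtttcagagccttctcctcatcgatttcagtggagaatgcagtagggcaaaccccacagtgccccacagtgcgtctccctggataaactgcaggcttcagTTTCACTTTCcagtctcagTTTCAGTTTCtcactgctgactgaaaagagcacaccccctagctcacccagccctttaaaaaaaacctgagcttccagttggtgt
Ifit3: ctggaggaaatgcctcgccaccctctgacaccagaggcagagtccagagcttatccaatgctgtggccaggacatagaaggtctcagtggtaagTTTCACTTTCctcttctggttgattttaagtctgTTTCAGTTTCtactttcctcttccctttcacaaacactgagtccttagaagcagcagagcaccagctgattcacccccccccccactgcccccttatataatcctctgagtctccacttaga
Ifit3b: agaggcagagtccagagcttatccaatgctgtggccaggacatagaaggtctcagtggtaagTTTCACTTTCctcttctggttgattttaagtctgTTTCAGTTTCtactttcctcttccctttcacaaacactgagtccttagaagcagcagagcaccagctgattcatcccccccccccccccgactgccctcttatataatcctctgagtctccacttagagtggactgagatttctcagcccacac
Ifit2 window 1: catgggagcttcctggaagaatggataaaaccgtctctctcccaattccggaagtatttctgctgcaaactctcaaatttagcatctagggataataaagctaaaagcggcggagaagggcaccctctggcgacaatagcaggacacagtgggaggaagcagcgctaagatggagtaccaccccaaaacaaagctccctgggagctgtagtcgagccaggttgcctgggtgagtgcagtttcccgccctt

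Ifit1, Ifit3 and Ifit3b each held 2 matches to the ISRE core. In all 3 genes the matched letters were TTTCACTTTC followed by TTTCAGTTTC. Counted back from the start, the matches spanned -104 to -95 and -85 to -76 in Ifit1, and -156 to -147 and -122 to -113 in Ifit3. In Ifit3b they spanned -188 to -179 and -154 to -145, and 217 of 218 aligned bases of the Ifit3 and Ifit3b windows were the same (99.5%). Among 32544 RefSeq windows of this length, 2.98% held at least 1 match and 0.175% at least 2. RefSeq gives Ifit2 a pair of starts, and neither window held a match. The motif TTCNNNGAA, a palindrome of the kind that STAT dimers bind, was searched too and reads alike on both strands. No match to it overlapped an ISRE core in these windows. It occurred once, in the first Ifit2 window at -241 to -233, and in 7.04% of all windows. No match says only that these letters are not in these windows. In the GENCODE transcript read for Ifit2, the start codon lies in exon 2, 19.7 kb after the start of the first exon, whereas in Ifit1, Ifit3 and Ifit3b it lies in exon 1. The sequence just before that second exon was not used here, so whether it holds an ISRE core is not known. Any link between these motifs and the changes of the genes was not tested.

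**Figure D1:**
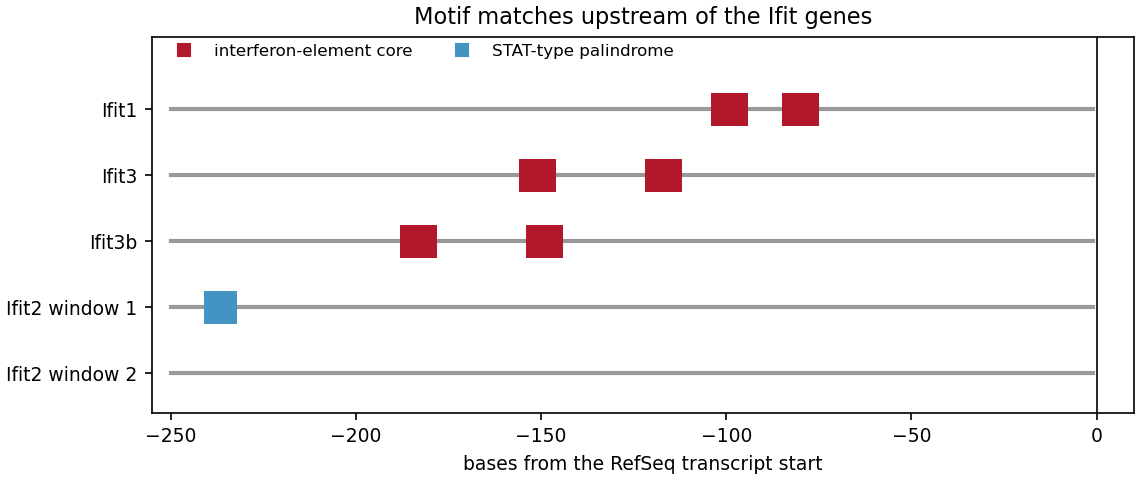
Position of motif matches in the 250 bases before each RefSeq start (x axis, bases from the start at 0; one row per window). Red blocks are ISRE cores and the blue block is the STAT-type palindrome; Ifit1, Ifit3 and Ifit3b carry 2 red blocks each and the Ifit2 windows carry none.

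The coding sequences of Ifit3 and Ifit3b were identical at 1201 of 1212 bases (99.1%), and each encodes 403 residues. Ifit1 encodes 463 residues and Ifit2 470. Ifit1 matched Ifit2 at 69.1% and Ifit3 at 74.2% of aligned coding bases, and Ifit2 matched Ifit3 at 77.0%. Of the 50-base stretches of the GENCODE transcripts, 51.2% of those of Ifit3 also occurred in Ifit3b, and 44.5% of those of Ifit3b in Ifit3. For Ifit1, 7.13% were shared, with Ifit1bl1 or Ifit1bl2, and for Ifit2 0%. How reads that match both Ifit3 and Ifit3b were divided is not given in the sources used here, so the split between these genes is uncertain, and their sum is given beside them. The use of strand is not given either, and Ifit1bl1 and Ifit1bl2 lie on the opposite strand in the same cluster.

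Control 1 stood apart from the other 11 libraries, so results are given with and without it. Its rank correlation (Spearman) with them over all genes was 0.813 to 0.880, against 0.924 to 0.998 among the other libraries. The 6 neuron markers (such as Snap25 and Syt1) summed to 1791 TPM in control 1 and to between 0.175 and 0.772 TPM elsewhere. All 6 microglia, 5 oligodendrocyte, 5 endothelial and 3 red cell markers were also highest in control 1, and P2ry12, C1qa and Hba-a2 were listed at 0 in the other 11. The astrocyte label is not borne out by all of its markers: Slc1a3, Slc1a2, Aqp4, Aldh1l1, Aldoc and Gja1 were under 1 TPM in all 11 other libraries. Gfap ranged from 0.126 to 1.19 TPM there. S100b (33.5 to 49.8 TPM), Glul (43.7 to 74.9 TPM), Sox9 (31.2 to 52.5 TPM) and Vim (1327 to 2678 TPM), which other cell types also express, were present in those libraries. In bulk RNA, fewer cells of a type and less RNA per cell cannot be told apart.

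All 4 genes rose in low NaHCO3, most of all Ifit3. Under 15% CO2, Ifit1, Ifit3 and Ifit3b rose by a smaller amount and Ifit2 did not pass the test. With lactic acid no member passed when all 12 libraries were used, and Ifit3 alone passed without control 1. Changes are differences of mean log2(TPM + 1), which understate the change of genes at a few TPM, from limma's moderated test of 11996 genes with Benjamini-Hochberg adjustment at 0.05. The 3 comparisons with control share its libraries and are not independent.

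**Figure D2:**
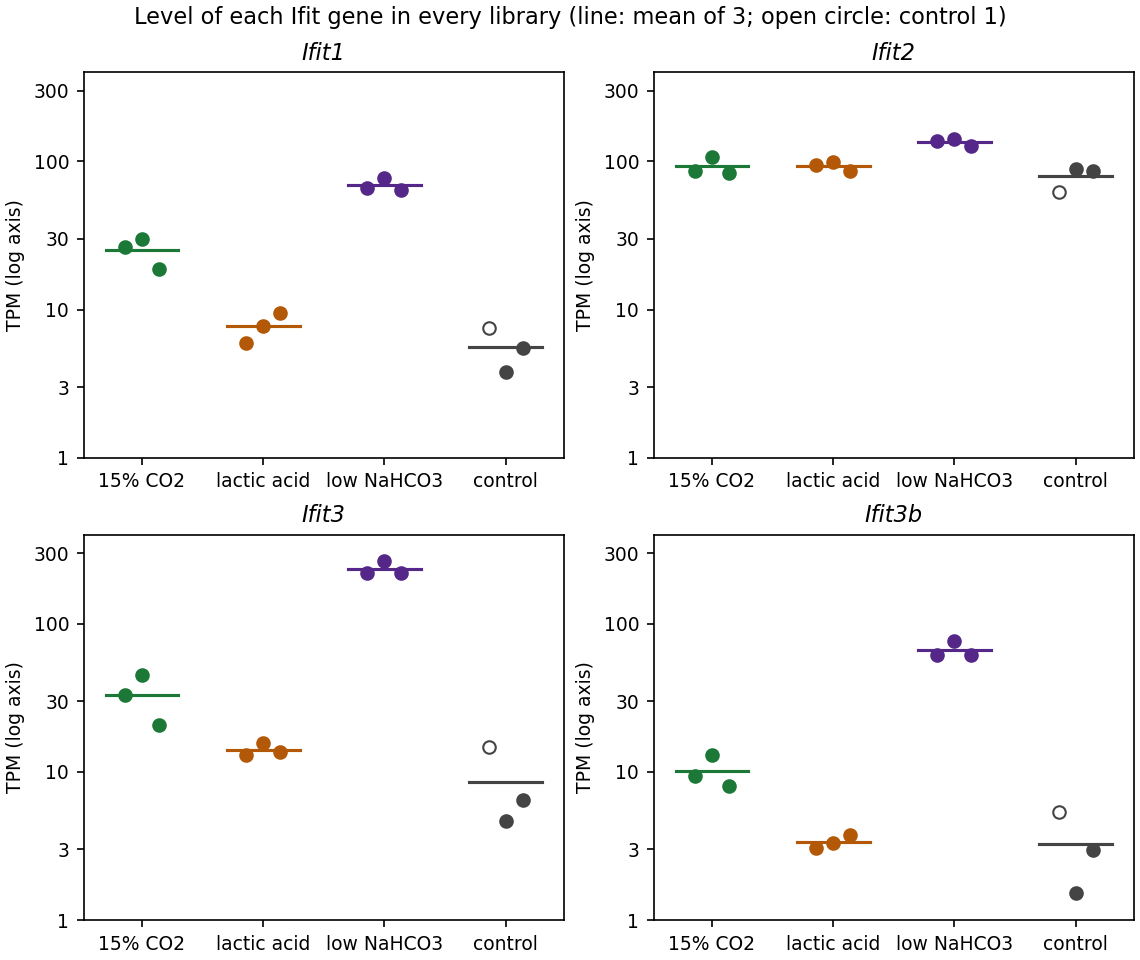
TPM (log axis) of each Ifit gene in every library, for 15% CO2, lactic acid, low NaHCO3 and control; points are libraries, lines are means of 3, and the open circle is control 1. The low NaHCO3 points lie above all others in every panel, and the groups of Ifit2 span a far narrower range than those of the other genes.

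Ifit1 (ENSMUSG00000034459), the cap sensor, had 66.0, 76.8 and 64.0 TPM in low NaHCO3 libraries 1 to 3, against 7.52, 3.79 and 5.48 TPM in controls 1 to 3. The groups did not overlap, as in 24.3% of all tested genes upward, and the low NaHCO3 mean was 12.3 times the control mean. Its log2 change was 3.44 (SE 0.23, adjusted p = 1.36e-06), and 3.65 without control 1 (adjusted p = 1.96e-07). Under 15% CO2 it had 26.4, 30.1 and 18.7 TPM, again above every control, as in 15.6% of all genes. The change from control was 2.0 (SE 0.23, adjusted p = 0.0037), or 2.20 without control 1 (adjusted p = 0.0014). Lactic acid libraries held 5.94, 7.82 and 9.52 TPM, which overlapped the controls through control 1. That change was 0.43 (95% interval -0.081 to 0.94, adjusted p = 0.283), and 0.63 without control 1 (adjusted p = 0.0645).

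Ifit3 (ENSMUSG00000074896), whose human counterpart is the partner of IFIT1, had 219, 263 and 219.9 TPM in low NaHCO3, against 14.7, 4.63 and 6.50 TPM in controls. This lifted it to between the 94.1 and 95.3 percentile of tested genes in low NaHCO3, against the 15.8 to 29.1 percentile in controls. The log2 change was 4.75 (SE 0.34, adjusted p = 1.98e-06), the highest of all 11996 genes, and 5.17 without control 1, again the highest, of 12023. With a pseudocount of 0.1 it ranked 5. Under 15% CO2 it had 33.1, 44.9 and 20.7 TPM, with library 3 lowest but above every control, a separation seen in 15.6% of all genes. That change was 1.89 (SE 0.34, adjusted p = 0.0218), and 2.32 without control 1 (adjusted p = 0.0015). It did not pass without 15% CO2 1 or 2 or without control 2 or 3 (adjusted p up to 0.110, change at least 1.58). With lactic acid it had 13.1, 15.7 and 13.6 TPM, above controls 2 and 3 and level with control 1. The change was 0.79 (95% interval 0.042 to 1.54, adjusted p = 0.190) with all libraries and 1.21 without control 1 (adjusted p = 0.0099).

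Ifit3b (ENSMUSG00000062488), the near copy, followed the same order at a lower level. It had 61.9, 76.1 and 61.4 TPM in low NaHCO3, against 5.35, 1.53 and 2.96 TPM in controls. No library of these groups overlapped, as in 24.3% of all tested genes upward. The log2 change was 4.07 (SE 0.28, adjusted p = 1.52e-06) or 4.41 without control 1 (adjusted p = 5.89e-08). Under 15% CO2 it had 9.45, 12.9 and 8.03 TPM, all above the controls, as in 15.6% of all genes. The change was 1.46 (SE 0.28, adjusted p = 0.0285), or 1.79 without control 1 (adjusted p = 0.0017). It passed in 4 of the 12 fits that each left out 1 library, those without control 1, lactic acid 3, low NaHCO3 2 or low NaHCO3 3 (adjusted p up to 0.131 in the others). Lactic acid libraries had 3.06, 3.32 and 3.76 TPM, inside the range of the controls. That change was 0.13 (95% interval -0.48 to 0.75, adjusted p = 0.794), and 0.47 without control 1 (adjusted p = 0.141). As 1 feature, Ifit3 plus Ifit3b rose by 4.69 in low NaHCO3 (adjusted p = 2.04e-06) and by 1.86 under 15% CO2 (adjusted p = 0.0223). Their sum gave 0.67 with lactic acid (adjusted p = 0.255).

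Ifit2 (ENSMUSG00000045932) was already abundant in controls and changed little. It had 138, 143 and 127 TPM in low NaHCO3, against 62.0, 89.5 and 86.8 TPM in controls. These groups did not overlap, as in 24.3% of all tested genes upward, and the low NaHCO3 mean was 1.71 times that of control. The log2 change was 0.78 (SE 0.14, adjusted p = 8.75e-04), and 0.62 without control 1 (adjusted p = 4.04e-04). Under 15% CO2 it had 86.2, 107 and 84.0 TPM, and with lactic acid 94.6, 98.8 and 85.8 TPM, and both groups overlapped the controls. The change was 0.23 under 15% CO2 (95% interval -0.087 to 0.54, adjusted p = 0.458) and 0.24 with lactic acid (95% interval -0.073 to 0.56, adjusted p = 0.323). Without control 1 these were 0.06 and 0.08 (adjusted p = 0.750 and 0.646), the intervals ending at 0.30 and 0.31. Control 1 was the lowest control for Ifit2 and the highest for Ifit1, Ifit3 and Ifit3b. Its part in these differences, beside the markers given above, was not tested.

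**Figure D3:**
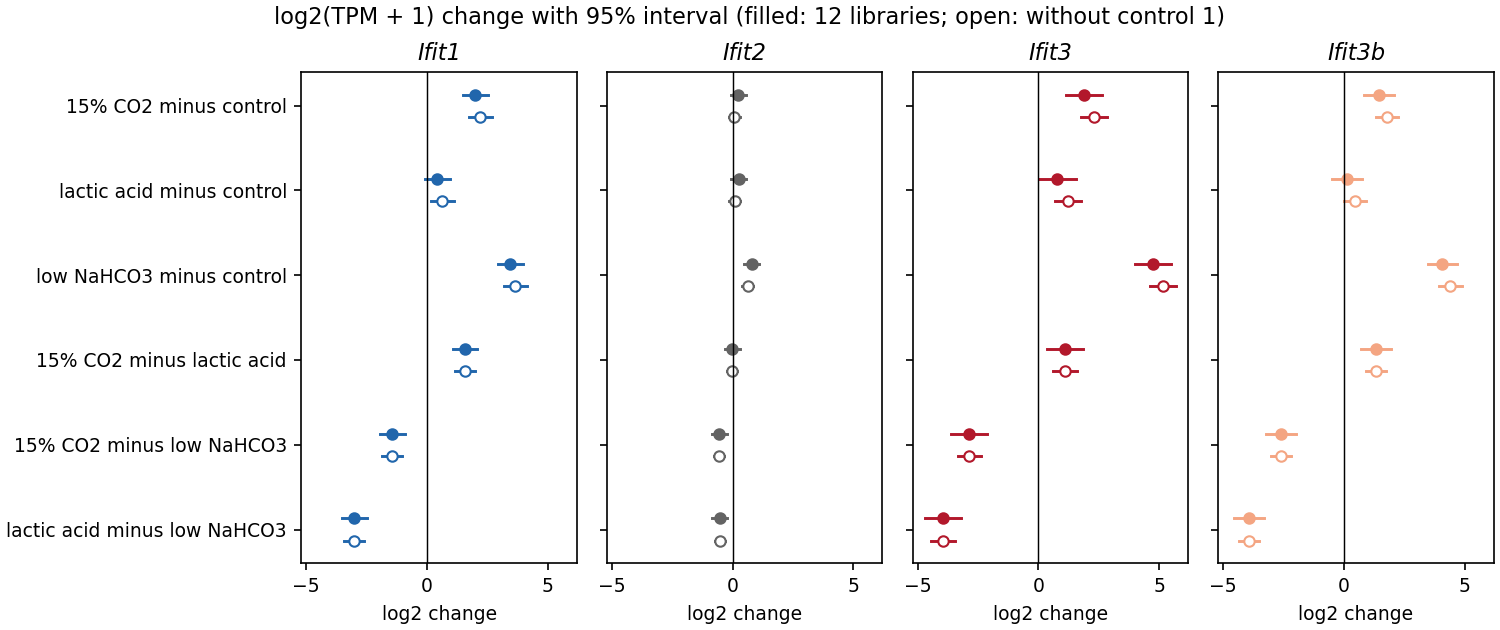
Difference of mean log2(TPM + 1) (x axis) with its 95% interval for the 4 genes in 6 comparisons (rows), from 12 libraries (filled) and without control 1 (open). The intervals of Ifit1, Ifit3 and Ifit3b lie above 0 for 15% CO2 and low NaHCO3 minus control, and those of Ifit2 include 0 except in the comparisons with low NaHCO3.

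Set against all genes, 3 of 4 members rose under 15% CO2, where 1.34% of tested genes were called higher (1.41% in either direction). Fitted with these 2 groups alone, 0 of 4 passed (adjusted p = 0.138 for Ifit1, 0.278 for Ifit3 and 0.308 for Ifit3b), and 3 of 4 had an unadjusted p under 0.05. With 12 libraries Ifit1 ranked 2, Ifit3 5, Ifit3b 16 and Ifit2 2295 by log2 change in that comparison. In low NaHCO3 4 of 4 rose, where 20.5% of genes were called higher and 56.2% in either direction, so the count alone says less there than the sizes. Ifit3 ranked 1, Ifit3b 4, Ifit1 15 and Ifit2 983. With lactic acid 0 of 4 passed in limma's test with all libraries, where 2.73% of genes were called higher (4.40% in either direction), and 1 of 4 had an unadjusted p under 0.05. Without control 1, 3 of 4 rose under 15% CO2 (5.99% of genes called higher), 1 of 4 with lactic acid (9.31%) and 4 of 4 in low NaHCO3 (23.1%). The median change of all genes in low NaHCO3 was -0.19, and -0.0085 after median-of-ratios scaling. With that scaling, 52.3% of called genes were higher in low NaHCO3, against 36.4% without it, and the Ifit2 change was 0.98 rather than 0.78. All 4 members kept their direction in low NaHCO3 under that scaling and under quantile normalization.

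The order of group means for Ifit1, Ifit3 and Ifit3b was low NaHCO3, 15% CO2, lactic acid, control. Both other treatments lay below low NaHCO3 for every member. The log2 difference 15% CO2 minus low NaHCO3 was -1.44 for Ifit1, -2.85 for Ifit3, -2.62 for Ifit3b and -0.56 for Ifit2. All 4 passed (adjusted p from 2.52e-05 to 0.0073), where 18.1% of genes were called lower. Lactic acid minus low NaHCO3 was -3.01, -3.96, -3.94 and -0.54 for the same genes, and all 4 passed (adjusted p from 2.84e-06 to 0.0091), beside 18.3% called lower. Without control 1 all passed in both comparisons, beside 24.2% and 24.8% called lower.

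Between 15% CO2 and lactic acid, every 15% CO2 library exceeded every lactic acid library for Ifit1, Ifit3 and Ifit3b. Such a separation occurred upward in 15.6% of all tested genes. Ifit1 passed with a difference of 1.57 (adjusted p = 0.0230), where 0.275% of genes were called higher, but not without 15% CO2 1 or 2, lactic acid 1 or 2, or low NaHCO3 2 (adjusted p up to 0.157). The call was also lost without a filter on low values (adjusted p = 0.0650) and with the replicate number as a block (adjusted p = 0.0824). Ifit3b differed by 1.33 (adjusted p = 0.0958) and Ifit3 by 1.10 (adjusted p = 0.314). Without control 1, which lends its spread to this comparison, all 3 passed (adjusted p = 0.0026 for Ifit1, 0.0051 for Ifit3b and 0.0197 for Ifit3), beside 3.09% called higher. The Ifit2 means were 92.5 TPM under 15% CO2 and 93.1 TPM with lactic acid, a difference of -0.01 (95% interval -0.33 to 0.30).

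The make-up of the family's RNA differed between groups. Summed TPM of the 4 genes was 161 ± 32.3 under 15% CO2, 118 ± 6.68 for lactic acid and 505 ± 46.8 in low NaHCO3, against 96.9 ± 6.49 in control (SD, n = 3 each). Ifit2 gave 25.5 to 28.6% of the sum in low NaHCO3, against 69.2, 90.0 and 85.3% in controls 1 to 3. Ifit3 gave 45.1 to 47.1% in low NaHCO3, against 16.4, 4.66 and 6.39% in controls. The most abundant member was Ifit3 in low NaHCO3 and Ifit2 in every other library.

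**Figure D4:**
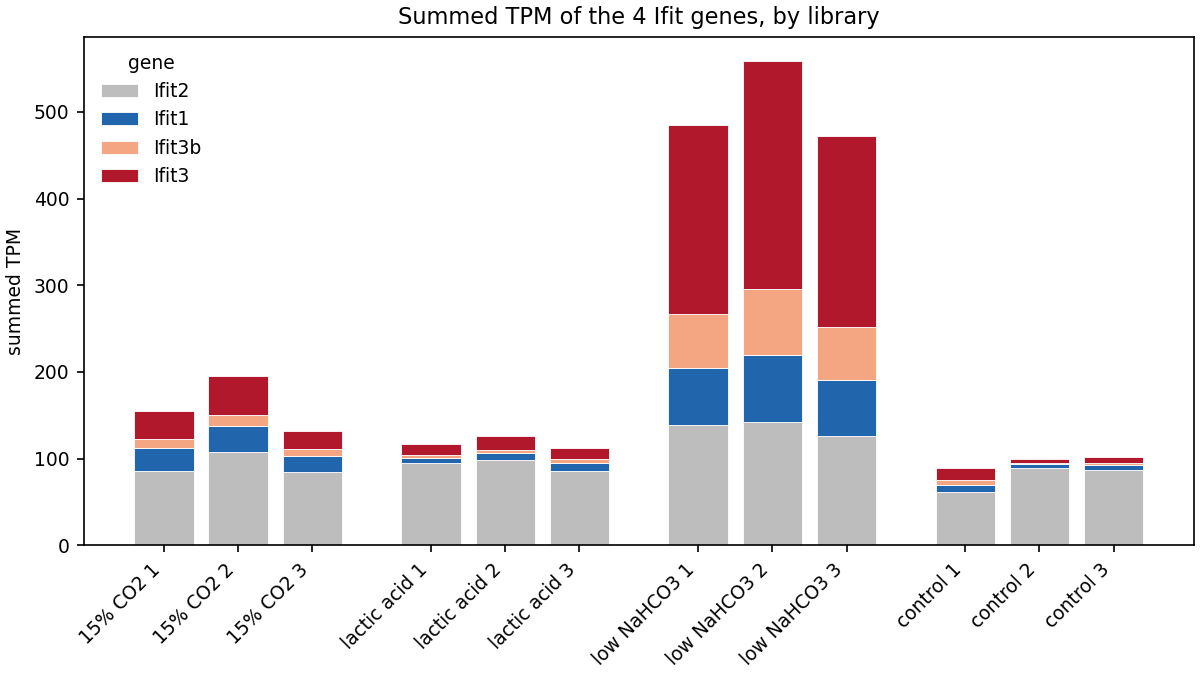
Summed TPM (y axis) of the 4 Ifit genes in each library, with each gene's part stacked; the libraries run from 15% CO2 through lactic acid and low NaHCO3 to control. Ifit2 fills most of each bar except in low NaHCO3, where the bars reach 472 to 559 TPM and Ifit3 is the largest part.

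Ratios between members varied little within low NaHCO3. Ifit3 was 3.31 to 3.44 times Ifit1 there, 1.10 to 1.49 times under 15% CO2, 1.42 to 2.21 times for lactic acid and 1.19 to 1.95 times in controls. Ifit3b made up 21.8 to 22.4% of Ifit3 plus Ifit3b in low NaHCO3, 22.2 to 28.0% under 15% CO2, 17.4 to 21.7% for lactic acid and 24.8 to 31.3% in controls. Between libraries of 1 group, 15% CO2 library 2 was highest and library 3 lowest for all 4 genes, and low NaHCO3 library 2 was highest for all 4. The lactic acid libraries held no shared order: library 3 was highest for Ifit1 and Ifit3b and lowest for Ifit2, and library 2 was highest for Ifit2 and Ifit3. The other family genes were scarce. Ifit1bl2 had 3.08, 2.60 and 2.06 TPM in low NaHCO3, against 0.419, 0 and 0.0732 TPM in controls, and at most 0.438 TPM in every library outside low NaHCO3. It passed the filter of at least 1 TPM in every library of a group through low NaHCO3 alone, so no test of it is given. RefSeq places the starts of Ifit1bl2 (one of its 2 windows) and Ifit1 146 bases apart on opposite strands. Ifit1bl1 was under 1 TPM except in control 1 (2.86 TPM) and was not tested.

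The genes whose pattern lay nearest to a member were sought over 12 libraries, by the root-mean-square difference of log2(TPM + 1) centred on each gene's mean, among 11992 other tested genes. Nearest to Ifit1 were Oasl2 (0.21), Zbp1 (0.25), Oas2 (0.25), Irf7 (0.26) and Gbp3 (0.29). Nearest to Ifit3 were Ifi44 (0.30), Usp18 (0.41), Trim34a (0.44), Irf7 (0.48) and Gbp2 (0.50), with Ifit3b itself at 0.31. Ifit3b lay nearest to Gbp2 (0.30), Mx2 (0.31), Usp18 (0.34), Ifi44 (0.35) and Irf7 (0.35). For Ifit2 they were Qars, the glutaminyl-tRNA synthetase (0.05), Eif2s3x, an initiation factor subunit (0.06), Frmd6 (0.06), Mapkapk2 (0.07) and Tmbim1 (0.07), whereas Ifit1 lay at 1.16. A gene that changes little finds near neighbours more easily: the standard deviation of the centred values was 0.33 for Ifit2 and 1.39 for Ifit1. Without control 1 the nearest were Oasl2 for Ifit1 (0.21), Ifi44 for Ifit3 (0.25) and Ifit3b (0.24), and Dhx40 for Ifit2 (0.05).

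The pathway that controls Ifit genes was followed from sensing to effectors with lists chosen with earlier results of these data known. Of 8 genes of RNA sensing, 4 rose under 15% CO2 (median log2 change 0.81, against 0.01 for all genes tested), 1 for lactic acid (median 0.40, against -0.03) and 5 in low NaHCO3 (median 1.13, against -0.19), and none fell. Over all tested genes, 1.34%, 2.73% and 20.5% were called higher in those comparisons, the shares to set beside this and the next lists. Ddx58, the RNA sensor RIG-I, had 37.9, 39.1 and 30.4 TPM under 15% CO2, 22.1, 25.6 and 26.7 TPM for lactic acid and 101, 122 and 97.8 TPM in low NaHCO3, against 11.6, 14.2 and 16.9 TPM in controls. It was the sensing gene that passed in all 3 comparisons, with log2 changes of 1.28, 0.77 and 2.83 for those treatments in that order. Ifih1, the sensor MDA5, rose by 0.99 under 15% CO2, the kinase Ikbke by 0.88 and the ubiquitin ligase Trim25 by 0.73.

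Of 11 tested genes of interferon production and signalling, 3 rose under 15% CO2 (median 0.22), 0 for lactic acid (median 0.09, 2 with an unadjusted p under 0.05) and 7 in low NaHCO3 (median 0.72). Irf7, a transcription factor that amplifies interferon production, rose by 1.64 under 15% CO2 (adjusted p = 0.0075) and by 3.72 in low NaHCO3. Irf9 and Stat2, parts of the complex that binds the ISRE, each rose by 0.95 under 15% CO2. The receptor genes Ifnar1 and Ifnar2 did not pass in any comparison with control over 12 libraries. Ifnb1, named here after its values were seen, encodes interferon beta and was listed at 0 in all 15% CO2 libraries, at 0.239 TPM in lactic acid 3 and at 0 in the other lactic acid libraries. It had 2.13, 1.33 and 4.63 TPM in low NaHCO3, against 0, 0.583 and 0 TPM in controls. It passed the filter on low values (at least 1 TPM in every library of a group) through low NaHCO3 alone, the group where it is high, so no test of it is given; of the other 10 signalling genes 6 rose there.

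Of 7 feedback and ISG15 pathway genes, 4 rose under 15% CO2 (median 0.72), 0 for lactic acid (median 0.43, 5 with an unadjusted p under 0.05) and 6 in low NaHCO3 (median 1.52). Usp18 removes ISG15 and dampens the interferon receptor. Among the 4 that passed under 15% CO2 it led with 1.74 (adjusted p = 0.0037). The ISG15 enzymes Uba7 (1.08), Ube2l6 (0.72) and Herc6 (0.68) followed. Isg15 itself did not pass there, with 65.0, 113 and 42.7 TPM under 15% CO2 against 18.4, 28.9 and 34.4 TPM in controls. Of 22 other interferon-induced effectors, 11 rose under 15% CO2 (median 1.25), 3 for lactic acid (median 0.49) and 20 in low NaHCO3 (median 2.81). Under 15% CO2 they were led by Oas2, whose product makes the messenger that activates RNase L (2.03), Rtp4 (1.97), Oasl2 (1.91) and Ifi44 (1.71). No tested gene of these 4 lists fell in the 3 comparisons with control. Without control 1 the counts that rose under 15% CO2, lactic acid and low NaHCO3 were 15, 7 and 21 effectors, 4, 2 and 6 sensing genes, 3, 1 and 7 signalling genes and 4, 2 and 6 feedback genes. Of all tested genes, 5.99%, 9.31% and 23.1% were then called higher. The signalling list tested there still holds Ifnb1, which passed the filter through low NaHCO3 alone. In low NaHCO3 1 gene of each list but the effectors then fell. With all 12 libraries, scaling moved some counts. For lactic acid, 3 sensing genes, 1 feedback gene and 6 effectors rose after median-of-ratios scaling, and 1, 0 and 6 after quantile normalization. Of all 11996 genes, 476 and 517 then rose. Under 15% CO2, 2 sensing genes, 3 feedback genes and 13 effectors rose after quantile normalization, where 147 of all genes rose. Median-of-ratios scaling left the 15% CO2 counts of these lists as they were.

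**Figure D5:**
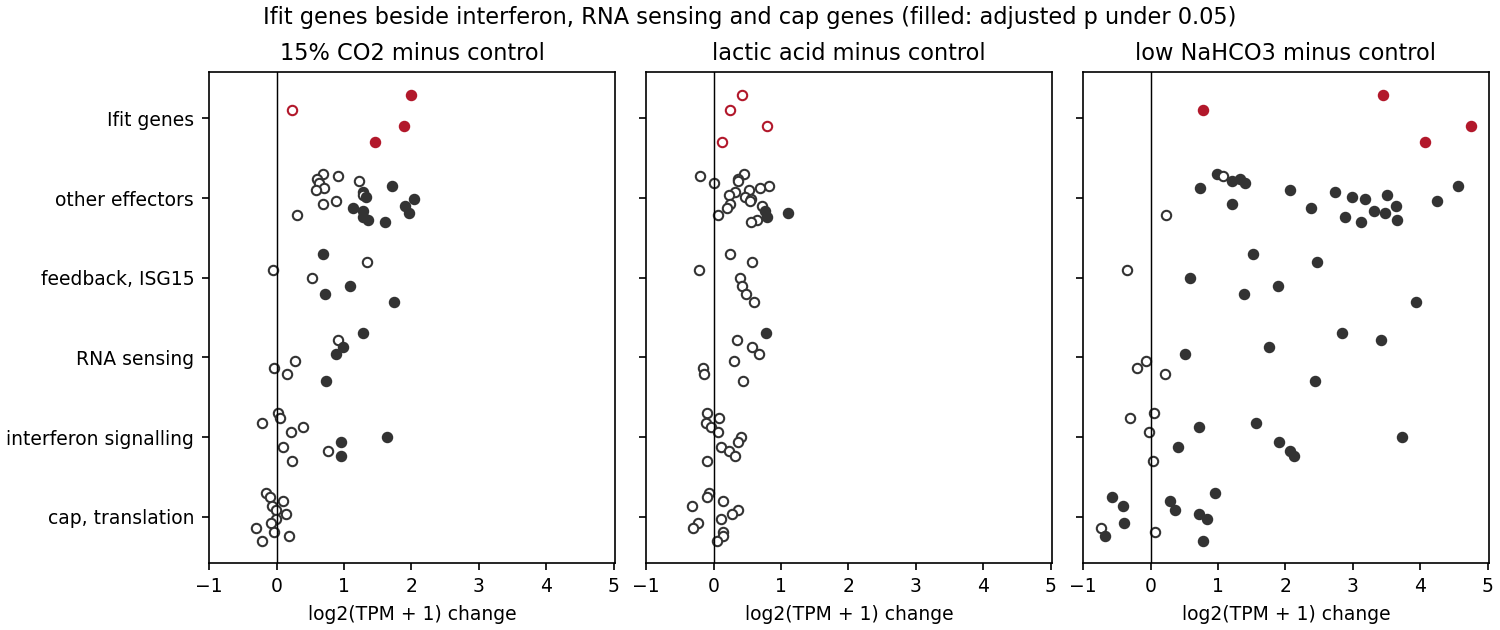
log2(TPM + 1) change from control (x axis) of the Ifit genes (red) and the genes of 5 lists (rows; black), for 15% CO2, lactic acid and low NaHCO3, from 12 libraries; filled points passed at adjusted p under 0.05. In low NaHCO3 Ifit3 (4.75) lies beyond the other genes drawn, while Ifit2 (0.78) lies among the least changed effectors. Ifnb1 and Cmtr1 are drawn too. Both passed the filter on low values through low NaHCO3 alone, so their filled points there are not to be read as tests.

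Ifit1 acts on RNA caps and initiation, so 12 genes of cap formation, decapping and translation initiation were read beside it. By limma's test 0 passed under 15% CO2 (median -0.06) or for lactic acid (median 0.08), and 0 and 2 had an unadjusted p under 0.05. In low NaHCO3 6 rose and 4 fell (median 0.18), where 20.5% of all tested genes were called higher and 56.2% in either direction. With median-of-ratios scaling 7 rose and 2 fell, where 3562 of all 11996 genes rose and 3245 fell. Eif3c, a subunit of the initiation factor that Ifit proteins bind, changed by 0.37 in low NaHCO3 (adjusted p = 0.0477), a call lost after quantile normalization (0.07, adjusted p = 0.631). Eif4g1, the scaffold of the cap-binding complex, changed by -0.40 (adjusted p = 0.0138), a call lost after median-of-ratios scaling (-0.20, adjusted p = 0.178). Cmtr1, named after its values were seen, adds the cap methyl group that shields host RNA from Ifit1. It had 2.05, 2.06 and 2.55 TPM in low NaHCO3, against 0.623, 0.787 and 0.583 TPM in controls. It too passed the filter through low NaHCO3 alone and gets no test. Of the other 11 genes 5 rose and 4 fell there without scaling. The 7 that rose with median-of-ratios scaling include Cmtr1.

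Genes beside the cluster on chromosome 19 were read too. Of 10 neighbours, 5 on each side, 7 were tested. Under 15% CO2 and for lactic acid 0 passed limma's test with all libraries (1 each with an unadjusted p under 0.05), and Acta2 (0.40, adjusted p = 0.0304) passed under 15% CO2 without control 1. In low NaHCO3 3 rose and 1 fell, where 20.5% of all tested genes were called higher and 56.2% in either direction. Acta2 (smooth muscle actin) rose by 1.08, Kif20b (a mitotic kinesin) by 0.96 and Rpp30 (an RNase P subunit) by 0.53, and Pank1 fell by 0.88 on the log2 scale. The calls of these 4 genes held without control 1, and with median-of-ratios scaling Lipa (0.44, adjusted p = 0.0343) passed as well. Fas, a death receptor named after its values were seen, had 3.09, 2.06 and 3.24 TPM in low NaHCO3, against 3.42, 0.424 and 0 TPM in controls, overlapping through control 1. It passed the filter through low NaHCO3 alone, so no test of it is given and its change is not ranked against the members. Fas is not among the 3 that rose. The nearest tested genes on either side, Lipa and Pank1, gave 0.24 (adjusted p = 0.213) and -0.88 (adjusted p = 0.0012), far from the 3.44 to 4.75 of Ifit1, Ifit3b and Ifit3.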

How the data were processed

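RNA of 12 C8-D1A libraries in 4 groups of 3 was measured. Per the labels, Trizol was used to isolate total RNA, and the NEBNext Ultra II kit to build libraries. The authors deposited TPM values per Ensembl gene, and each column sums to 1000000. The submitters' processing notes name fastp 0.22.0 (a read trimmer), HISAT2 2.1.0 (an aligner) and the build GRCm39. Read counter, annotation and strand setting: not given in the sources used here. No counts are listed, so depth is unknown and no counting intervals could be given. In some descriptions the CO2 name or the reagent dose rises by 1 with each replicate; such steps were taken for slips of copying, and the treatment label set the group.

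From there, symbols were matched by ID to GENCODE M21 (21851 of 21959). Genes with at least 1 TPM in every library of any group (11996, or 12023 without control 1) entered limma 3.58.1 in R 4.3.3 as log2(TPM + 1), in a group-means model of all libraries with eBayes and a trend, two-sided, with Benjamini-Hochberg adjustment within each of 6 comparisons. All 4 members passed this filter in both library sets. The fit was tested on simulated data. Alternatives were another pseudocount, no filter or one at 5 TPM, median-of-ratios and quantile scaling, eBayes made robust or without the trend, a block on replicate number, fits of only the groups compared, leaving out libraries, and Ifit3 plus Ifit3b summed. The members and lists were chosen with earlier results of these data known. Named are the members, the other family genes, and per list up to 4 genes with the largest change past the threshold under 15% CO2, or the 2 most abundant where none passed, plus the 5 nearest patterns. Promoter windows are RefSeq's (GRCm38.p6). Coding sequences came from GENCODE M21 and were aligned with Biopython 1.88 in Python 3.11.15.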

Additional observations from a re-analysis of the deposited data

How the results depend on the processing

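In the 3 comparisons with low NaHCO3, every member tested kept its call and direction in all 36 alternative settings, and genes called ranged over 5350 to 8362 (control), 5212 to 8966 (15% CO2) and 4788 to 8483 (lactic acid). For 15% CO2 minus control, 3 members were called, but 1 without a filter, where 18693 genes were adjusted together (Ifit3 adjusted p = 0.0502, Ifit3b 0.0662). Fitting only the groups compared gave 0 in limma's test, with 0 genes called; 3 members and 1174 genes had an unadjusted p under 0.05, and Ifit1 had adjusted p = 0.138. Leaving out 1 library, or control 1 and 1 more, gave 1 to 3 members; the count was 1, Ifit1 alone, without 15% CO2 1, 15% CO2 2, control 2 or control 3. Genes called ranged from 0 to 2009 around 169. For 15% CO2 minus lactic acid, 1 member was called, against 0 without a filter, 2 with quantile normalization, 2 with only the groups compared, 3 when control 1 was left out together with median-of-ratios scaling, log2(TPM + 0.1) or the block, and 0 to 3 leaving out libraries; genes called ranged from 6 to 841 around 40. Ifit1 lost its call there without 15% CO2 1 or 2, lactic acid 1 or 2, or low NaHCO3 2. For lactic acid minus control, 0 members were called, and 0 with the block over 12 libraries. When control 1 was left out as well, there were 2 with median-of-ratios scaling, 1 with log2(TPM + 0.1) and 1 with the block; leaving out libraries gave 0 to 2, and genes called ranged from 0 to 2721 around 528. The causes were not tested beyond these constructions. Changes that turned sign were Ifit2 in 15% CO2 minus lactic acid (0.03 without 15% CO2 1, 0.050 without 15% CO2 3, 0.03 without lactic acid 2, with or without control 1; range -0.12 to 0.050), Ifit2 in 15% CO2 minus control (-0.050 without control 1 and 15% CO2 2; up to 0.32) and Ifit3b in lactic acid minus control (-0.20 without control 2; up to 0.79). None of these was called with 12 libraries.

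Deviations from the group mean were correlated between libraries of different groups. Same-numbered pairs ran from -0.15 to 0.49, with 3 of 18 over 0.1, and other pairs from -0.48 to 0.39, with 5 of 36 over 0.1. Between 15% CO2 and lactic acid, libraries numbered 3 gave 0.49, those numbered 2 gave 0.35 and those numbered 1 gave -0.03. There 15% CO2 2 with lactic acid 1 gave 0.39, and 15% CO2 3 with lactic acid 1 gave -0.40. With the replicate number as a block, 2 members were called in 15% CO2 minus control (Ifit3b adjusted p = 0.0676; 92 genes called) and 0 in 15% CO2 minus lactic acid (Ifit1 adjusted p = 0.0824; 13 genes called, and 3 members with an unadjusted p under 0.05); other counts of members stayed as they were. Depth is unknown, so precision was judged from the spread between libraries alone.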

Other observations

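Outside the Ifit family, 300 tested genes had at least 1 ISRE core in a RefSeq window read as above, and 18 had at least 2. Of these 18, 6 rose under 15% CO2 (33.3%), 1 for lactic acid (5.56%) and 10 in low NaHCO3 (55.6%), where 3 fell. Of the 300, 24 rose under 15% CO2 (8%), 19 for lactic acid (6.33%) and 90 in low NaHCO3 (30%), where 87 fell (29%). Of the 9082 genes whose windows held no match, 1.13%, 2.62% and 20.4% rose in those comparisons, and 36% fell in low NaHCO3. The median log2 change in low NaHCO3 was 0.81 for the 18 genes, -0.0047 for the 300 and -0.19 for the 9082 without a match. Without control 1 the 18 genes gave 6, 2 and 10 that rose. For genes with at least 1 match the shares that rose were then 14.6%, 14% and 32.6%, and for genes with none 5.43%, 8.97% and 23.2%. The shares that fell in low NaHCO3 were then 31.9% with a match and 41.4% with none. Promoter windows share letters between related genes, and no test was made of these shares.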
